A study of Sus scrofa with 6 samples.

Results

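The miRNAs described here come from hairpins of the imprinted DLK1-DIO3 domain, sequenced as small RNA in the back muscle (longissimus dorsi) of pigs, 3 of the lean Large White breed (LW) and 3 of the obese Meishan breed (MS). They were chosen by name, as all arms of the porcine miRNAs that carry the numbers of this cluster and of 9 hairpins that the deposited table lists without a porcine name (PN-). This gave 26 mature miRNAs from 13 hairpins, with a 5p and a 3p arm each, of 1143 miRNAs in all. The 6 animals were untreated female fetuses of 35 days post-conception, each from its own sow, although the labels give an adult age of 2 years. The comparison asked which miRNAs differ between the breeds when the primary myofibers form.

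The DLK1-DIO3 domain is imprinted in placental mammals. The paternal chromosome expresses the protein-coding genes DLK1, RTL1 and DIO3, and the maternal one expresses long non-coding RNAs such as MEG3, from which a large cluster of miRNAs is processed. In sheep the callipyge mutation in this domain gives muscle hypertrophy, and in mouse muscle the transcription factor MEF2A is known to drive the cluster during regeneration.

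One hairpin did not match the description of the list as miRNAs outside RTL1. The authors' hairpin table gives mir-431 as the homolog of PN-52 and places it on chromosome 7 of Sscrofa10.2 at chr7:132097559-132097703, plus strand, between the hairpins of miR-136 and miR-127. These belong to the group antisense to RTL1, and the RefSeq gene table of Sscrofa11.1 likewise holds MIR127, MIR432 and MIR136 within the span of RTL1. PN-52 was kept by the rule, and the counts without it are given below. miR-493 lies at chr7:132069387-132069497, on the minus strand in the authors' table, and RefSeq orders MIR493 between MEG3 and RTL1. The other 11 hairpins were listed on the minus strand of a scaffold that the table does not name, so their order is given by the listed start and it is not stated that they share 1 scaffold. RefSeq likewise keeps MIR376C, MIR376A and MIR381 on a sequence without a chromosome. What other annotation lies at these sites was not analysed here.

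The first set of sequences is shown because its members are near-copies of each other and yet differed in the size of the breed difference. Capitals mark the seed, bases 2 to 8 from the 5′ end, with which a miRNA pairs to its targets, and T stands for U as in the deposited table.
miR-376c-3p: aACATAGAggaaattccacgt
miR-376a-3p: aTCATAGAggaaaatccacgt
PN-45-3p (mir-376b): aTCATAGAggaaaatccatgt
PN-46-3p (mir-376d): aTCATAGAggaaaatccacat

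The last 3 of these shared 1 seed, and miR-376c-3p differed from miR-376a-3p at 2 bases, A2T and T14A (base of miR-376c-3p first), the former inside the seed. PN-45-3p differed from miR-376a-3p by T19C and PN-46-3p from miR-376a-3p by A20G. Reads with an error, or for A20G alone an edited base, could be counted to a neighbour, and the split among these 3 is uncertain. MiRNAs of the miR-376 group are known to be edited from A to I in human and mouse brain.

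The second set is shown because 1 seed was found in miRNAs that, as deposited, differed between the breeds in opposite directions, although of these the call of PN-59-3p alone was kept after the GC correction described below.
PN-20-3p (mir-154b): aTCATACAtggttgaccttttt
PN-65-3p (mir-539): aTCATACAaggacaatttcttt
PN-59-3p (mir-485): gTCATACAcggctctcctctct

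The third set holds the most abundant members and those whose 5p and 3p arms parted.
miR-381-3p: tATACAAGgacaagctctctgt
PN-49-3p (mir-409): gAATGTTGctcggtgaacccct
PN-20-5p (mir-154b): aGAGGTCTtccatggtgcattcg
PN-47-5p (mir-377): aGAGGTTGcccttggtgaattc
PN-47-3p (mir-377): aTCACACAaaggcaacttttgt
PN-52-5p (mir-431): tGTCTTGCaggccgtcatgc

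The listed sequence of each of the 26 members was found without a mismatch in a hairpin of the authors' tables. No miRNA of the table outside the list carried a seed of a member. The listed sequence of PN-45-5p spans bases 4 to 23 of its hairpin, ahead of the stretch from base 23 that the table marks as the 5p arm, so this entry lies almost wholly outside the marked arm.

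Values are the deposited normalized reads, which count only the commonest sequence of a miRNA and are scaled per library. The step among the commonest low values of each library, taken as 1 read, gave 1038969 to 3419282 reads per library. This was lowest in MS replicate 3, where 1 read is worth 1.69 normalized reads. The muscle markers miR-1, miR-133a, miR-133b, miR-206, miR-208b and miR-499 were present in every library. All 6 were called higher in MS as deposited, with a summed level of 19810.0 to 24647 in LW and 65946 to 96651 in MS. After the GC correction described below 4 were called higher and 2 lower. The latter were miR-206-3p (log2 fold change -0.96, MS over LW) and miR-499-5p (-0.87). Of 9 neural miRNAs in the table, such as miR-9 and miR-124, 8 could be tested, of which 6 were higher and 0 lower in MS (1163 to 2136 against 5041 to 8008 normalized reads in sum), and PN-30-3p (mir-219b) was at 0 in all LW libraries. After the GC correction 5 of the 8, among them miR-124, were called higher and 0 lower, and miR-9 was not called. Of 3 blood miRNAs, miR-451-5p and miR-144-3p were higher in MS (summed list 3426 to 4480 against 5780 to 9994). With the GC correction miR-144-3p was not called, whereas miR-451-5p and miR-486-5p were called higher. The endothelial miR-126-3p ranged from 4166 to 6726 in LW and from 3899 to 4161 in MS and was not called, whereas the cartilage miR-140-3p was lower in MS (53944 to 70843 against 4202 to 10059), as was the liver miR-122-5p (182 to 2860 against 46.8 to 89.1), which was high in LW replicate 3. After the GC correction miR-140-3p and miR-122-5p were still called lower. The other arms of miR-126 and miR-140 went otherwise as deposited. miR-126-5p was called higher (log2 fold change 2.61, MS over LW) and miR-140-5p was not called (-0.12). The part of these marker differences in the results below was not tested. In bulk tissue fewer cells of a type and less RNA per cell cannot be told apart.

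As deposited, most of the cluster was higher in MS, but this majority was not kept after a correction for GC content (4 higher and 6 lower). Of the 24 members whose mean reached 10 normalized reads in LW or MS, 14 were higher and 6 lower in MS at an adjusted p under 0.05 (limma on log2(normalized reads + 1), two-sided, Benjamini-Hochberg over 548 miRNAs), and 4 were not called. The 20 calls are 83.3% of the members, against 62.2% called either way among all 548 miRNAs. Among all 548 miRNAs 34.1% were called higher and 28.1% lower, against 58.3% and 25.0% of the members. The median log2 fold change, MS over LW, was 1.13 over the members and 0.11 over all miRNAs tested. In 22 of 24 members the 3 LW and the 3 MS libraries did not overlap, as in 67.7% of all miRNAs tested. Without PN-52 the counts were 13 higher and 6 lower of 22, a set of arms chosen after the values were seen.

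The direction went with the base composition of the listed sequence. Of the 16 tested members with a GC content under 45% (27.3% to 43.5%) 13 were called higher and 1 lower, and of the 8 above it (50% to 60.0%) 1 was called higher and 5 lower. The same held for the whole table, in which 60.2% of 196 miRNAs under 45% were called higher and 12.2% lower, against 19.6% and 36.9% of the 352 others. The median log2 fold change was 1.57 for the members and 1.48 for all miRNAs under 45%, and -1.12 and -0.52 for the others. Across miRNAs, which share libraries and are not independent, Pearson's r of GC content and log2 fold change was -0.78 over the 24 members and -0.40 over all 548. After a loess correction for GC content within each library, 4 members were called higher and 6 lower, against 30.8% higher and 29.0% lower among all 548 miRNAs. In this fit 9 of the 20 calls were kept with their direction, and the median over the members was -0.08. Where the GC trend comes from was not tested. The corrected value is therefore given with the deposited one below.

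**Figure D1:**
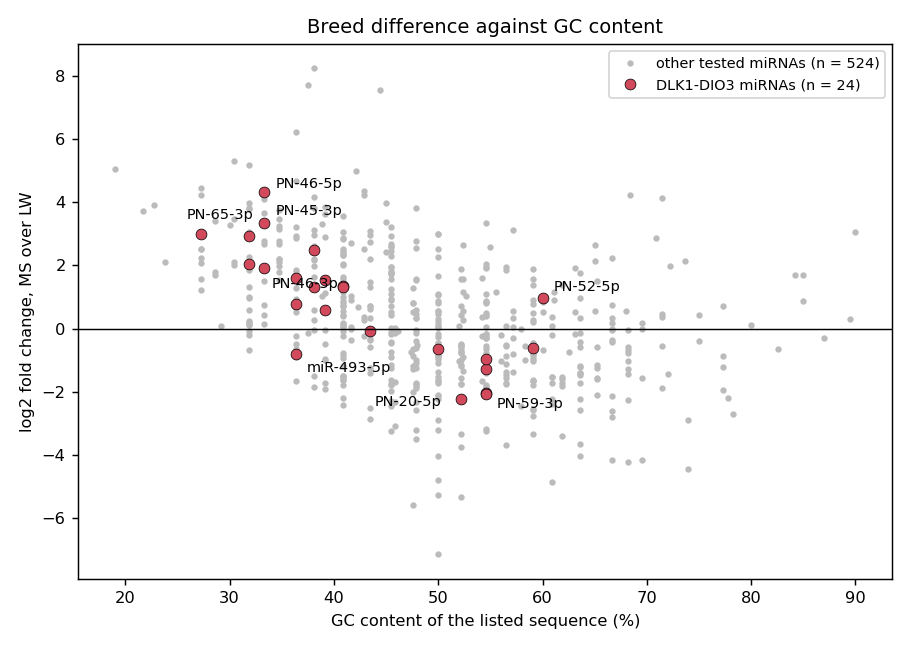
Each point is 1 of 548 tested miRNAs, with the GC content of its listed sequence in percent on the x axis and its log2 fold change, MS over LW, on the y axis. The 24 DLK1-DIO3 members (red) fall with GC content, and PN-52-5p at 60.0% (0.96) and miR-493-5p at 36.4% (-0.79) stand away from the others.

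The miR-376 hairpins, which lie next to each other by listed start, gave 4 of the 5 largest fold changes upward. In human cells miR-376 family members are known to act on autophagy genes. miR-376c-3p had 967, 787 and 733 normalized reads in the LW libraries and 4918, 4602 and 4297 in MS. All MS libraries lay far above all LW libraries, and the mean rose from 829 ± 123 to 4606 ± 310.3 (SD, n = 3; log2 fold change 2.48, SE 0.25, adjusted p = 7.9e-06). It remained called after the GC correction, at 1.09 (adjusted p = 0.0017). PN-45-3p, which matches mir-376b, had 217, 206 and 132 normalized reads in LW and 2032, 1963 and 1602 in MS. This was the largest rise among members above 100 normalized reads in both breeds, with a log2 fold change of 3.35 (SE 0.30, adjusted p = 3.3e-06) and 1.35 after the GC correction (adjusted p = 0.0012).

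PN-46-3p, which matches mir-376d, had 371, 323 and 269.9 normalized reads in LW and 1294, 1232 and 1095 in MS. LW and MS were again well apart, with a log2 fold change of 1.91 (SE 0.27, adjusted p = 9.2e-05), but after the GC correction it was -0.09 and not called. miR-376a-3p was the least abundant 3p arm of the group, with 33.8, 43.9 and 22.8 normalized reads in LW and 95.3, 80.3 and 71.1 in MS. MS libraries lay above the LW libraries (log2 fold change 1.31, SE 0.37, adjusted p = 0.0084), and the corrected value was -0.08 and not called.

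Since PN-45-3p and PN-46-3p have the same GC content (33.3%) and differ at 2 bases, their ratio compares miRNAs of equal GC content and does not depend on the scaling of a library. PN-45-3p had 0.584, 0.637 and 0.489 reads per read of PN-46-3p in LW and 1.57, 1.59 and 1.46 in MS. In LW it was the scarcer of the pair in every library, and in MS the more abundant in every library (exact permutation test, two-sided, p = 0.10, the smallest that 3 against 3 allows). miR-376c-3p over miR-376a-3p, both at 38.1% GC, gave ratios of 28.6, 17.9 and 32.1 in LW and 51.6, 57.3 and 60.5 in MS. The breeds did not overlap here either (exact permutation test, two-sided, p = 0.10). These 2 pairs were chosen after their values were seen.

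The 5p arms of the group rose as well. miR-376a-5p had 184, 204 and 125 normalized reads in LW and 598, 432 and 463 in MS. Again no library of one breed reached the other, and the log2 fold change was 1.55 (SE 0.31, adjusted p = 0.0010), and 0.31 and not called after the GC correction. miR-376c-5p was rare in LW, at 27.6, 27.7 and 11.9 normalized reads, and had 186, 200.2 and 123 in MS. All MS libraries were several times the highest LW library (log2 fold change 2.93, SE 0.41, adjusted p = 8.0e-05), while the corrected value was 0.74 and not called. PN-46-5p stood at 3.76, 2.44 and 0.913 normalized reads in LW, which are 3, 3 and 1 reads, and at 71.2, 70.7 and 47.4 in MS. It was close to the detection limit in LW only and passed the filter of 10 normalized reads through MS alone, so that it could hardly be called lower. Its log2 fold change of 4.32 (SE 0.48, adjusted p = 1.4e-05; 2.32 and called after the GC correction) rests on those few LW reads. With a pseudocount of 10 in place of 1 it was 2.55 and still called. The 18 listed bases of PN-46-5p differ from miR-376a-5p at 1 base (C8T, base of miR-376a-5p first). Reads of the more abundant miR-376a-5p could thus be counted to PN-46-5p, which was not tested. PN-45-5p was below the filter, with 0 to 0.813 normalized reads in LW and 1.69 to 8.63 in MS, and was not tested.

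**Figure D2:**
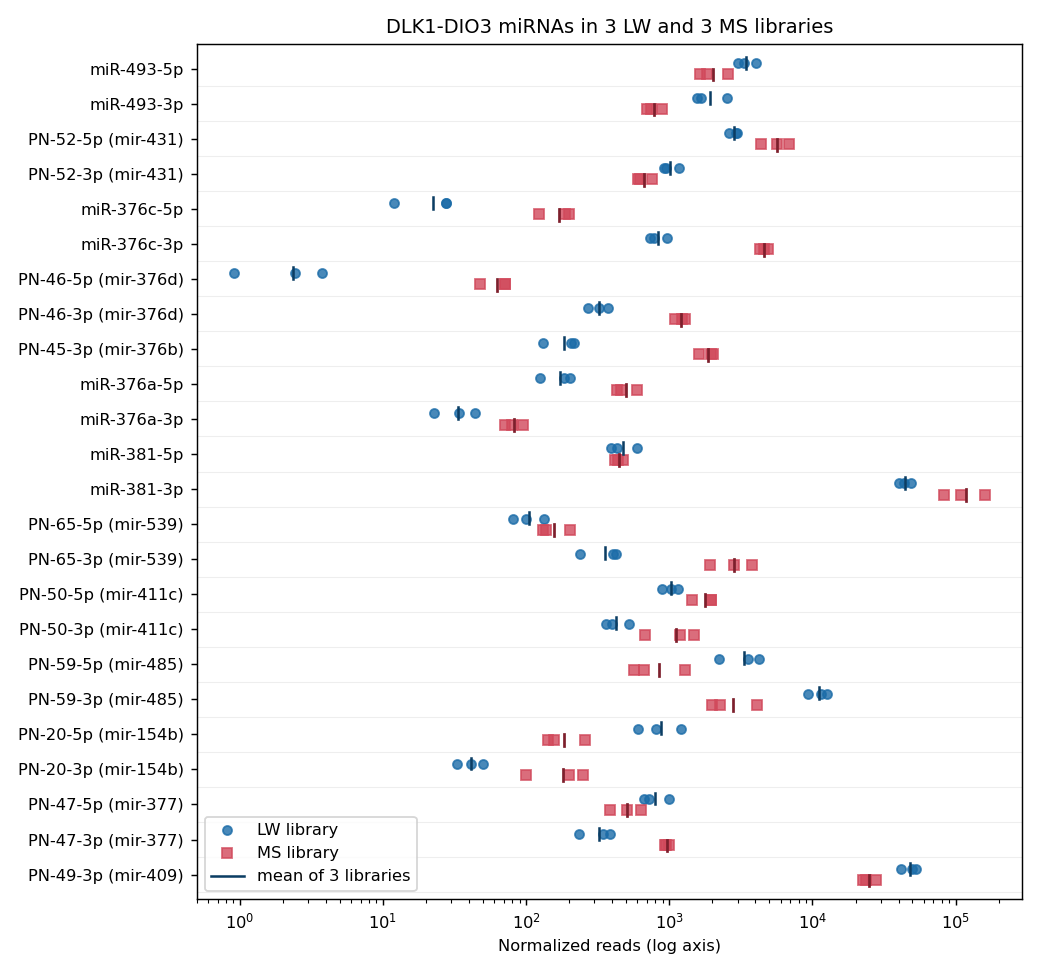
Normalized reads on a log axis of the 24 members tested, 1 point per library (circles LW, squares MS) with the mean of 3 libraries as a vertical bar, hairpins in listed order. The breeds overlap only for miR-381-5p and PN-65-5p.

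miR-381-3p was the most abundant member in MS, at rank 3 of the whole table by MS mean and rank 17 by LW mean. It had 49149, 43288 and 40519 normalized reads in LW and 160278, 109129.5 and 83455 in MS. Although the MS libraries were widely spread, the lowest lay above all of LW, and the log2 fold change was 1.36 (SE 0.25, adjusted p = 0.00058). After the GC correction it was 0.41 and no longer called. Its 5p partner did not follow. miR-381-5p had 429.7, 591 and 395 normalized reads in LW and 415, 439 and 474 in MS, so that the breeds overlapped (log2 fold change -0.07, SE 0.29, adjusted p = 0.84; -0.53 and not called after the GC correction). A near-copy outside the list, PC-30-3p, which differs from miR-381-3p by A4G over 20 bases, was far scarcer, with 9.76 to 16.3 normalized reads in LW and 59.7 to 106 in MS, and was called higher with and without the GC correction (2.24 and 2.44).

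The members took a larger share of all listed reads in MS, and the mean share of miR-381-3p alone rose by more than that of all members together. Their share was 4.45% ± 0.27 (SD, n = 3) in LW and 8.34% ± 0.89 (SD, n = 3) in MS, with no overlap between the breeds. Of all listed reads miR-381-3p alone held 1.63% ± 0.28 in LW and 5.67% ± 1.03 in MS. It made up 36.5% ± 4.95 of the members' reads in LW and 67.6% ± 5.29 in MS. Together with PN-49-3p it made up 75.7% ± 1.78 and 82.4% ± 2.75. The other 24 members summed to 29681 ± 3348 normalized reads in LW and 29399 ± 2757 in MS, so that their rises and falls nearly cancelled in the sum. Their share of all listed reads was 1.08% ± 0.075 and 1.45% ± 0.086. All listed normalized reads summed to 2745532 ± 188965 in LW and 2037615 ± 304575 in MS, so that a share can be larger in MS without more reads.

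PN-49-3p, which matches mir-409, was the most abundant member in LW and fell in MS. The 3p arm of miR-409 is known in human cells to act on angiogenin. It had 41289, 52878 and 49217 normalized reads in LW and 27866, 22450.2 and 23771 in MS. All MS libraries lay below all LW libraries, with a log2 fold change of -0.95 (SE 0.22, adjusted p = 0.0022), and the corrected value was -0.32 and not called. PN-49-5p was below the filter, with 0 to 1.25 normalized reads in LW and 1.69 to 7.2 in MS.

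Both arms of PN-59, the match of mir-485, fell about alike. In rodent neurons miR-485 is known to act on the synaptic vesicle protein SV2A. PN-59-3p had 9247, 12619.6 and 11481 normalized reads in LW and 2252, 1976 and 4109.7 in MS. MS replicate 3 was the highest of its breed but stayed under every LW library (log2 fold change -2.06, SE 0.30, adjusted p = 0.00011). PN-59-5p had 2241, 4239 and 3536 normalized reads in LW and 663, 571 and 1293 in MS, again with MS replicate 3 highest (log2 fold change -2.03, SE 0.36, adjusted p = 0.00040). After the GC correction both remained called lower, at -1.43 and -1.40. PN-59-3p has the seed of PN-65-3p and PN-20-3p, both of which were called higher as deposited.

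PN-65-3p, the match of mir-539, had the largest rise outside the miR-376 group. It had 422, 402 and 237 normalized reads in LW and 3781, 2843 and 1937 in MS. LW and MS were far apart (log2 fold change 3.0, SE 0.34, adjusted p = 1.6e-05). Its GC content of 27.3% was the lowest among the members tested, and the corrected value was 0.25 and not called. PN-65-5p had 81.4, 133 and 99.6 normalized reads in LW and 131, 137 and 201 in MS, which overlapped at the edge (log2 fold change 0.58, SE 0.34, adjusted p = 0.15; -0.66 and not called after the GC correction).

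Both arms of PN-50, the match of mir-411c, were called higher. PN-50-3p had 526, 360.3 and 396 normalized reads in LW and 1192, 1486 and 673 in MS. MS replicate 3 was the closest to LW and still above it (log2 fold change 1.33, SE 0.34, adjusted p = 0.0046), and the corrected value was 0.38 and not called. PN-50-5p had 1036, 891 and 1155 normalized reads in LW and 1957, 1952 and 1447 in MS. This was a smaller rise, of 0.79 (SE 0.27, adjusted p = 0.021), and its direction depended on the GC correction, after which it was called lower at -0.83 (adjusted p = 0.012). As deposited, the call was also lost without LW replicate 2 (0.69, adjusted p = 0.078), without MS replicate 1 (0.72, adjusted p = 0.077) and without MS replicate 2 (0.72, adjusted p = 0.083).

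Both arms of miR-493 fell. In human cells miR-493 is known to act on the receptor IGF1R. miR-493-3p had 1559.7, 1674 and 2541 normalized reads in LW and 894, 740.0 and 695 in MS. No MS library reached the LW range (log2 fold change -1.28, SE 0.29, adjusted p = 0.0020; -0.65 and called after the GC correction). miR-493-5p had 2999, 3328 and 4041 normalized reads in LW and 2585, 1840.0 and 1641 in MS, and was the 1 member of low GC content that was called lower (log2 fold change -0.79, SE 0.27, adjusted p = 0.023). Its corrected value was -2.41 (adjusted p = 5.2e-05). The call of miR-493-5p as deposited was lost without LW replicate 3 (-0.67, adjusted p = 0.10), without MS replicate 2 (-0.74, adjusted p = 0.075) and with libraries scaled to equal sums (-0.35, adjusted p = 0.18).

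**Figure D3:**
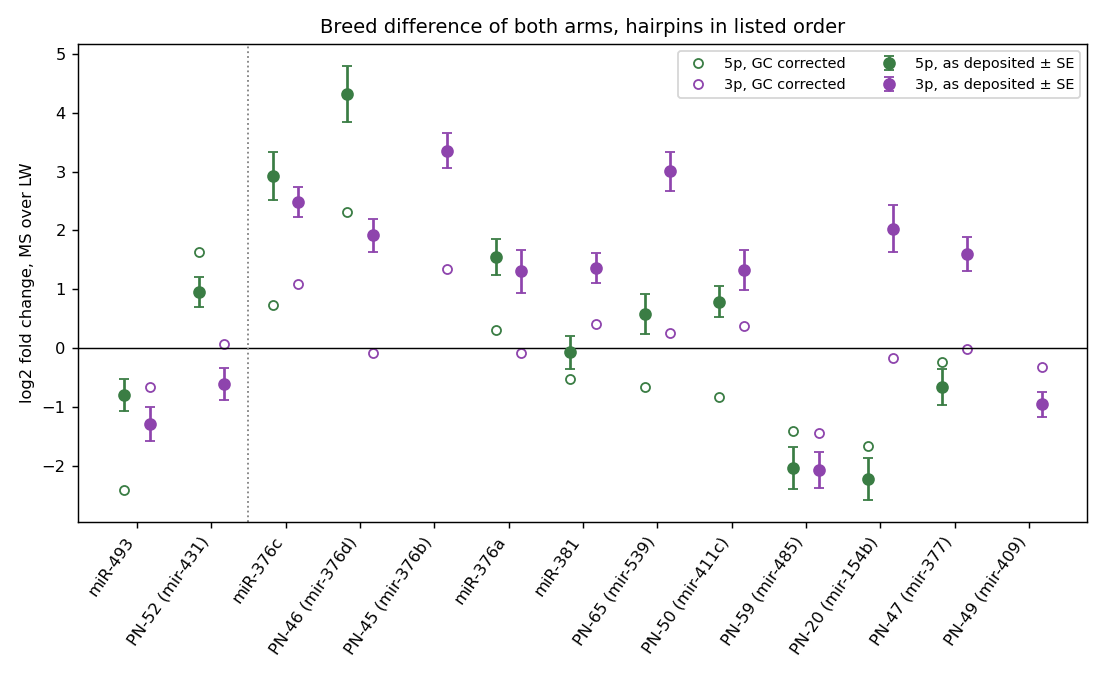
Log2 fold change, MS over LW, of the 5p (green) and 3p (purple) arms as deposited (filled, bars 1 SE from limma) and after the GC correction (open), with the 2 hairpins on chromosome 7 left of the dotted line and the others by listed start on the unnamed scaffold. The hairpins from miR-376c to miR-376a lie above 0 as deposited, PN-59 lies below on both arms, and PN-20, PN-47 and PN-52 have arms on opposite sides.

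In PN-20, PN-47 and PN-52, beside miR-381 with its 5p arm near 0, the arms lay on opposite sides of 0, with both arms called in PN-20 alone. PN-20 matches mir-154b, and in human fibroblasts miR-154 is known from fibrosis. PN-20-5p had 604, 1210.4 and 806 normalized reads in LW and 142, 157 and 257 in MS. It was the steepest fall among the members (log2 fold change -2.22, SE 0.35, adjusted p = 0.00018; -1.66 and called after the GC correction). PN-20-3p had 50.1, 41.5 and 32.9 normalized reads in LW and 198, 248 and 99.8 in MS. It rose while its partner fell (log2 fold change 2.03, SE 0.40, adjusted p = 0.00084), but the corrected value was -0.16 and not called. PN-20-5p was thus called lower with and without the correction, and PN-20-3p was called higher without it only.

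PN-47 matches mir-377, which is known in kidney cells for its part in fibronectin production. PN-47-3p had 347, 386 and 236 normalized reads in LW and 938, 949 and 993 in MS. Its MS libraries were close together and all above LW (log2 fold change 1.60, SE 0.29, adjusted p = 0.00049), and the corrected value was -0.02 and not called. PN-47-5p had 669, 998 and 722 normalized reads in LW and 505, 386 and 636 in MS. Libraries of the breeds did not overlap, but the difference was not called (log2 fold change -0.65, SE 0.30, adjusted p = 0.080; -0.24 after the GC correction). It was called by DESeq2 on recovered reads (-0.73, adjusted p = 0.035) and without MS replicate 3 (-0.83, adjusted p = 0.027).

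PN-52 matches mir-431, which in mouse satellite cells is known to act on Pax7. PN-52-5p had 2994, 2948 and 2601 normalized reads in LW and 6849, 5644 and 4369 in MS. Every MS library was above every LW library (log2 fold change 0.96, SE 0.26, adjusted p = 0.0060). It has the highest GC content of the members tested, and the corrected value was larger, at 1.64 (adjusted p = 0.00036). PN-52-3p had 918, 950.1 and 1174 normalized reads in LW and 763, 609.7 and 628 in MS, which did not overlap either. The difference of -0.60 (SE 0.27, adjusted p = 0.069) was not called, although scaling by median of ratios (-0.65), edgeR (-0.64) and DESeq2 (-0.68) called it, and the corrected value was 0.08.

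The ratio of the arms was then compared within each hairpin, where the scaling of a library cancels. Both arms were abundant enough in 192 hairpins of the table and in 11 of the 13 hairpins here, all but PN-45 and PN-49. The log2 ratio of 3p over 5p differed between breeds in 6 of the 11 (limma, adjusted p under 0.05 over the 192), and in 64.6% of all hairpins tested. Toward 3p in MS were 4 of these and toward 5p 2, against 35.4% and 29.2% of all 192 hairpins. Without PN-52 there were 5 of 10.

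The largest shift was that of PN-20. The 3p arm held 7.66%, 3.31% and 3.92% of the reads of both PN-20 arms in LW and 58.3%, 61.2% and 28.0% in MS. A hairpin that was almost all 5p in LW had its arms near balance in MS, less so in replicate 3 (difference in log2 ratio 4.25, SE 0.58, adjusted p = 0.00040; 1.5 and called after the GC correction). In PN-47 the 3p arm held 34.2%, 27.9% and 24.6% in LW and 65.0%, 71.1% and 61.0% in MS. The more abundant arm was therefore 5p in every LW library and 3p in every MS library (2.25, SE 0.32, adjusted p = 0.00046), but the arms differ in GC content (50% and 36.4%), and after the correction the difference was 0.22 and not called.

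PN-65 moved from 83.8%, 75.2% and 70.4% of 3p reads in LW to 96.7%, 95.4% and 90.6% in MS. The difference of 2.43 (SE 0.48, adjusted p = 0.0024) became 0.92 and was not called after the GC correction. For miR-381 the 3p share was 98.9% ± 0.25 in LW and 99.6% ± 0.15 in MS (SD, n = 3), and the difference of 1.43 (SE 0.43, adjusted p = 0.018) was lost without LW replicate 2 (1.24, adjusted p = 0.058), without MS replicate 1 (1.14, adjusted p = 0.080) and after the GC correction (0.94, adjusted p = 0.082).

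Both shifts toward 5p were in hairpins whose arms have nearly (PN-52) or exactly (PN-46) the same GC content, so that a correction by GC content could hardly move the first ratio and could not move the second. In PN-52 the 3p arm fell from 23.5%, 24.4% and 31.1% in LW to 10.02%, 9.75% and 12.6% in MS. The breeds were well apart, and the difference was -1.56 (SE 0.29, adjusted p = 0.0017). In PN-46 it fell from 99.0%, 99.3% and 99.7% to 94.8%, 94.6% and 95.9%, with a difference of -2.41 (SE 0.36, adjusted p = 0.00055). This size rests on the few 5p reads in LW named above, and with a pseudocount of 10 it was -0.67 (adjusted p = 0.041). Reads of miR-376a-5p counted to PN-46-5p could also enter this ratio.

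In 5 hairpins the arm ratio was not called. The difference was 0.54 in PN-50 (SE 0.31), -0.03 in PN-59 (SE 0.28), -0.24 in miR-376a (SE 0.26), -0.45 in miR-376c (SE 0.39) and -0.49 in miR-493 (SE 0.27). PN-59, whose arms have the same GC content, held 77.3% ± 2.90 (SD, n = 3) of its reads on the 3p arm in LW and 77.0% ± 0.79 (SD, n = 3) in MS. After the GC correction PN-50 (1.21, adjusted p = 0.012) and miR-493 (1.76, adjusted p = 0.00048) were called toward 3p, the latter with its sign turned.

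**Figure D4:**
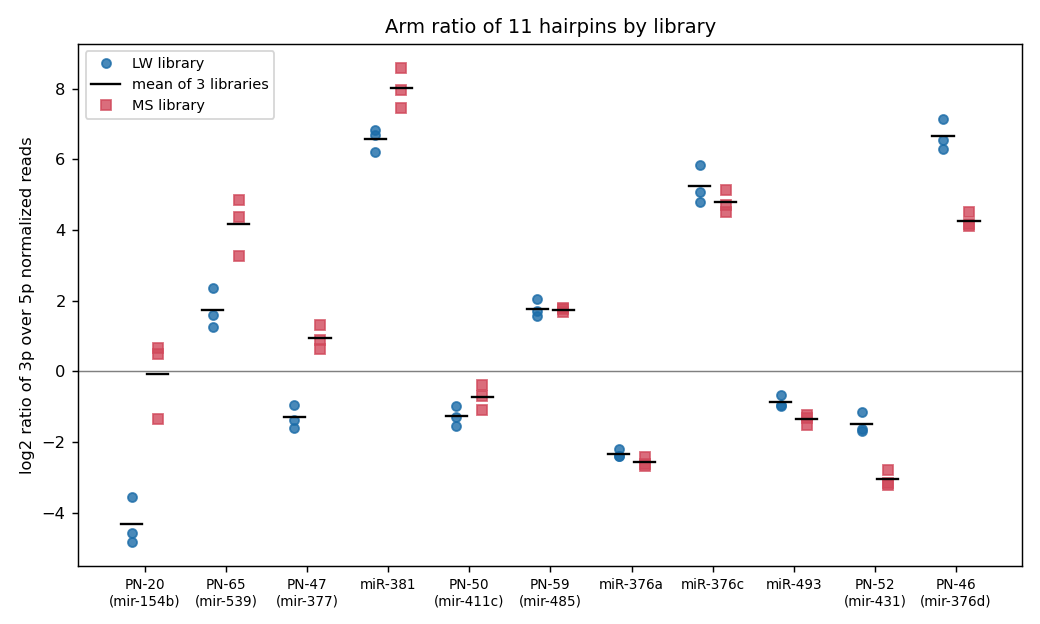
Log2 ratio of 3p over 5p normalized reads (pseudocount 1) in each library (circles LW, squares MS, bars the mean of 3) for the 11 hairpins with both arms tested, ordered by the difference MS minus LW. PN-47 lies below 0 in every LW library and above 0 in every MS library, and PN-59 has the same ratio in both breeds within the spread of LW.

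The position within the listed cluster and the library were read off the same values. The 4 miR-376 hairpins lie side by side by listed start, and all 7 of their tested arms, at 31.8% to 39.1% GC, were called higher, against 60.2% of all miRNAs under 45% GC. After the GC correction 3 of the 7 were called higher. PN-46-5p, which is in both counts, passed the filter through MS alone and could hardly be called lower. The scaffold hairpins with a called fall, PN-59, PN-20 and PN-49, lie toward lower starts, but PN-20 and its neighbour PN-47 also had a called rise on the 3p arm, and the fall of PN-49-3p was not called after the GC correction. Of the 14 members called higher, 12 had their lowest MS value in replicate 3 and 10 their highest in replicate 1, and 12 had their lowest LW value in LW replicate 3. Of the 6 muscle markers 5 were lowest in MS replicate 3 as well, and of the 9 neural miRNAs 8 were highest there. Without MS replicate 3 the counts were 14 higher and 7 lower.

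Other hairpins of the domain that the names did not include were read for comparison. In the group antisense to RTL1, of which 6 of 7 arms could be tested, 3 were called higher and 1 lower, with the same counts after the GC correction. The highest of these, miR-127-3p, had 154119.8 to 192627 normalized reads in LW and 118733 to 140072 in MS and was not called (-0.45, adjusted p = 0.067; 0.24 and not called after the GC correction). miR-136-5p (33.3% GC) was called higher at 3.66 and miR-432-5p (47.8% GC) lower at -1.82, and both were called after the correction too, at 1.66 and -1.61. Of 17 further arms outside RTL1, 11 could be tested, with 5 called higher and 1 lower as deposited, and 4 higher and 4 lower after the GC correction. Among those called higher in both fits is PC-30-3p, the near-copy of miR-381-3p named above. It overlaps mir-381 and so cannot be taken as a further hairpin of the domain. PN-68-3p, which matches mir-544a, was also called higher in both fits, but with means of 0.27 in LW and 27.7 in MS it passed the filter through MS alone. PN-73-3p, which matches mir-655, had 388 to 536 normalized reads in LW and 1592 to 3554 in MS (27.3% GC, log2 fold change 2.52, adjusted p = 5.4e-05; -0.23 and not called after the correction), and PN-51-3p, which matches mir-412, had 152.8 to 227 and 37.6 to 49.1 (54.5% GC, -2.06, adjusted p = 0.00020; -1.43 and called after the correction).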

How the data were processed

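The authors prepared TruSeq small RNA libraries from the muscle of 3 LW and 3 MS fetuses, each from a different sow, and with ACGT101-miR kept reads of miRNA length, removed other RNA classes and mapped the rest by BLAST to miRBase 21.0 and Sscrofa10.2. Values deposited by the authors are a signal, reads normalized to the library and counted for the commonest sequence of a miRNA alone, so that its other variants are not in them. They were scaled by the total mappable reads of each library, to a target that neither methods nor labels state. The table also gives each sequence's length, and its class and name. Another 4 lines were not used here. Low values were mostly multiples of 1 step per library, taken as 1 read, and of those up to 20 reads 93.3% to 95.7% were whole within 0.1 read. Whole reads recovered in this way numbered 1038969 to 3419282 per library. MS replicate 3 has the fewest and is the least precise.

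The breed comparison used limma 3.58.1 (R 4.3.3) on log2(normalized reads + 1), eBayes with trend. It took in the 548 miRNAs whose mean reached 10 normalized reads in LW or MS, and Benjamini-Hochberg adjustment ran over all of them. A fold change on this scale understates the change of rare miRNAs. Arm ratios were tested likewise, as log2(3p + 1) minus log2(5p + 1) over 192 hairpins. The GC correction took out a loess curve (span 0.75) per library. Tested on simulated reads of 548 miRNAs with 200 changed, the breed comparison recovered 40% of 2-fold and 97% of 4-fold changes and called 4 of 348 unchanged ones. In this simulation 2-fold differences were thus often missed. The changed miRNAs were picked at random over all abundances, so the rate for abundant members may differ. The members, the comparison and marker lists and the alternatives were chosen with earlier results of these data known. Every member is named, those under the filter by their range. Sequences are those of the deposited table, and positions those of the authors' hairpin tables, which were used as annotation only. Gene order came from RefSeq (Sscrofa11.1), and its coordinates were not used. Alternatives were pseudocounts of 0.5 and 10, 3 other scalings, other filters, no trend, a replicate block, GC correction, each library left out, and edgeR 4.0.16 and DESeq2 1.42.0 on recovered reads. Counts without PN-52 were chosen after seeing the data. Other steps ran in Python 3.11.15, pandas 2.3.3 and numpy 2.4.6, with scipy 1.17.1 for exact permutation tests.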

Additional observations from a re-analysis of the deposited data

How the results depend on the processing

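The counts of members held under most alternatives. The number called higher was 14 as reported, 4 after the GC correction, 4 with GC correction and replicate block together, and 8 of 14 tested with a filter at 1000 normalized reads or by the paper's own unadjusted test. Leaving out 1 library gave 13 to 14 higher, 5 to 7 lower and 5 to 6 hairpins with a changed arm ratio. The replicate numbers are not stated to pair the animals. Correlations of same-numbered libraries were 0.0047, -0.21 and 0.097, and those of differently numbered ones -0.28 to 0.36, which cannot settle it. With the replicate block 14 members were higher, 6 lower and 6 hairpins changed.

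After the GC correction, with or without the block, the sign turned for PN-50-5p (-0.83), PN-52-3p (0.079), PN-46-3p (-0.088), PN-47-3p (-0.018), PN-65-5p (-0.66), PN-20-3p (-0.16) and miR-376a-3p (-0.079), and for the arm ratios of miR-376c (0.36) and miR-493 (1.76). The cause was not tested. The fold change of miR-381-5p, near 0, turned with equal sums (0.37) and TMM (0.0019) and ranged from -0.19 to 0.10 over the left-out libraries, as did the PN-59 arm ratio from -0.13 to 0.10. Equal sums moved the median of all miRNAs by 0.43 and the members' calls to 15 higher and 5 lower. PN-65-5p was then called (1.01). Of 612 single values under alternatives 554 kept their direction and side of the threshold. This count pools all settings, and under the GC correction 9 of the 20 member calls were kept with their direction. Depth limits PN-46-5p, PN-45-5p and PN-49-5p most.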
